A study of Mus musculus with 3 samples.

Results

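The Wnt ligands described here are 10 genes of the secreted Wnt family, Wnt4, Wnt5a, Wnt5b, Wnt6, Wnt7a, Wnt7b, Wnt9b, Wnt10a, Wnt10b and Wnt11, chosen by symbol from the gene names of the array's probes. They are 10 of the 19862 named genes on the array and of its 19 Wnt genes, and 13 probes measured them. The choice was made with earlier results of these data known, so the counts and medians below may partly follow from it. The samples were mPTECs, an abbreviation kept as the labels give it, cells from the kidneys of male mice aged 1 month. One sample was freshly isolated (day 0), one had spent 1 day on a culture dish and one 3 days, the cultures in DMEM/F12 with insulin, transferrin, selenium, hydrocortisone and 1% serum. The strain and the number of animals are not given in the labels used here. Each day was 1 Cy3-labelled sample on 1 Agilent array, so no difference has a replicate check and no test was made. The ratios below describe these 3 arrays, and their number limits the precision.

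Wnt proteins are secreted signals that receive a lipid from the acyltransferase Porcn and are carried to the cell surface by Wls. At the receiving cell they bind Frizzled receptors. With the coreceptors Lrp5 and Lrp6 this keeps beta-catenin from its destruction complex, so that beta-catenin enters the nucleus and acts with Tcf and Lef factors, whereas other receptors such as Ror2 and Ryk lead to planar polarity and calcium signalling. In the developing mouse kidney Wnt9b from the ureteric bud induces the nephron progenitors, Wnt4 drives their change into epithelium, Wnt11 acts at the bud tips and Wnt7b from the collecting duct shapes the medulla.

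Levels are given as a percent of the array's 75th percentile, taken over its non-control spots. A gene was counted as higher or lower from a 4-fold difference, with 2-fold as a second threshold. All 10 ligands were well above background, by the scanner software's flag, on all 3 arrays. Of the 9 Wnt genes outside the 10, 7 were so on day 0, 7 on day 1 and 9 on day 3. On day 3 the array held more Wnt10a, Wnt7a, Wnt7b and Wnt4 than on day 0 and less Wnt9b. Wnt5b was lower on day 1, and Wnt5a, Wnt6, Wnt10b and Wnt11 differed by less than 2-fold in every comparison.

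The probes are 60 bases long, and the first 30 bases of several that the results turn on show what each signal reads. They come from the array files, 5′ to 3′ in the sense of the transcript, with positions on mm9.
Wnt10a probe, chr1:74850633-74850692, plus strand: tttcacttaacagatatttatttttgcgct
Wnt7a probe, chr6:91314653-91314712, minus strand: cctcagcggtgggtcagtcagtgtctcaca
Wnt4 probe, chr4:136851690-136852258, plus strand: tcttcacaacaacgaggctggcaggaaggc
Wnt5b brighter probe, chr6:119383012-119383071, minus strand: ggaagatgagtgtctgtgaccctggccatt
Wnt5b dimmer probe, chr6:119390320-119390379, minus strand: gtgagaagaactttgccaagggatcggagg
Wnt9b probe, chr11:103588882-103588941, minus strand: tgtctttctagccaaagcttcctctctcaa
The Wnt4 positions span 569 bases of genome, more than the probe's length, as does 1 of the Wnt5a probes (chr14:29331746-29335708, 3963 bases), so neither probe reads 1 unbroken stretch of genome. The spans of the brighter Wnt6 probe and of the Wnt11 probe, 66 and 61 bases, were also over the probe length of 60. The Wnt5b probes lie at different places of the transcript, and they differ in the size of their ratio. Which of the probes lie in coding exons or in UTRs was not looked up, since no annotation of mm9 was used here.

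Promoter sequences were matched for 7 of the 10 ligands in the RefSeq table, on GRCm38.p6, each 250 bases before to 50 bases after an annotated start. They gave 10 promoters in all, with several for Wnt5b and for Wnt11. Those of Wnt4 and Wnt7a, which were higher in culture, and of Wnt9b, which was lower, are shown so that the 2 directions can be read side by side. Capitals mark GGGCGG on either strand, the core of the GC box bound by Sp1, where matches may overlap.
Wnt4 promoter, chr4:137277385-137277684, plus strand: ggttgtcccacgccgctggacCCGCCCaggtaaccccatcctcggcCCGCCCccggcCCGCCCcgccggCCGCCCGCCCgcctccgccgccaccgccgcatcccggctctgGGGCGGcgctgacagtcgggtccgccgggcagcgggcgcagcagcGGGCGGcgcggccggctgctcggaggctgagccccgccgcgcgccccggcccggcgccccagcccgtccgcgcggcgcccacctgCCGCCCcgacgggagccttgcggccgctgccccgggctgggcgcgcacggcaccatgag
Wnt7a promoter, chr6:91411304-91411603, minus strand: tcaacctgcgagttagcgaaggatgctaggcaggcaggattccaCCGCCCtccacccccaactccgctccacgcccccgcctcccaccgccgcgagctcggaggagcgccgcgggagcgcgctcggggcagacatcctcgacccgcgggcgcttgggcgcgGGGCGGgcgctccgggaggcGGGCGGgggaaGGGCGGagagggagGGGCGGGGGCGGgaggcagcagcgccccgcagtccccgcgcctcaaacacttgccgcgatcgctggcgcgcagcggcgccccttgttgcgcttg
Wnt9b promoter, chr11:103749772-103750071, minus strand: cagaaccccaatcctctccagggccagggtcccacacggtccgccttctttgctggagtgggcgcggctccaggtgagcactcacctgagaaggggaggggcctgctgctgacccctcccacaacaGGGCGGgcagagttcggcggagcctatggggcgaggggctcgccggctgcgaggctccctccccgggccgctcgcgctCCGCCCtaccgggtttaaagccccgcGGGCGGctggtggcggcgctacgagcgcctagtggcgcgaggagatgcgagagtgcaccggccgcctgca
The letters GGGCGG were present in 8 of the 10 promoters, against 35.7% of the 32851 promoters in the table. Wnt4 held 8 matches, a count that 0.262% of all promoters reach, Wnt7a held 6 (1.35%) and Wnt9b held 3 (10.7%). Wnt6, which differed by less than 2-fold between the days, also held 6 (1.35%). The 3 promoters shown were rich in G and C, at 84.3% in Wnt4, 76.0% in Wnt7a and 71.7% in Wnt9b. The median of all promoters was 52.7%, and the part of base content in the match counts was not tested. CTTTGA, the core of Tcf/Lef sites, was in 2 of the 10 promoters against 16.0% of all, and TGANTCA, the AP-1 site, in 1 against 7.81%, both strands searched. A ligand that was higher and one that was lower both held the GC box, and a match is only a match of letters.

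Wnt10a, a ligand of the beta-catenin branch whose human counterpart is mutated in tooth and ectodermal disorders, had the highest ratio of the 10. Its level was 39.8 ± 3.99% on day 0, 381 ± 38.1% on day 1 and 931 ± 93.1% on day 3, where ± is the error the scanner software gives for the spot. That is 9.58-fold higher on day 1 than on day 0 and 23.4-fold higher on day 3 than on day 0, log2 ratios of 3.26 and 4.55. Day 3 was 2.44-fold above day 1, a log2 ratio of 1.29, so on the log2 scale the larger step lay between day 0 and day 1. Of all genes compared, 150 had a higher ratio on day 1 against day 0, and 169 did so on day 3 against day 0.

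Wnt7a, known for its part in limb patterning and in the vessels of the mouse brain, followed the same order of days. Its level was 8.10 ± 0.847% on day 0, 51.8 ± 5.19% on day 1 and 131 ± 13.1% on day 3. It was 6.40-fold higher on day 1 than on day 0, 16.2-fold higher on day 3 than on day 0 and 2.53-fold higher on day 3 than on day 1. Day 0 was the lowest array and day 3 the highest, as for Wnt10a.

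Wnt7b, close in sequence family to Wnt7a and a collecting duct ligand in the developing kidney, was 33.9 ± 3.40% on day 0, 99.5 ± 9.95% on day 1 and 185 ± 18.5% on day 3. The level on day 3 was 5.44-fold that on day 0, and on day 1 it was 2.93-fold that on day 0, under the 4-fold threshold. Scaled to reference genes, the log2 ratio of Wnt7b on day 3 against day 0 was 1.88, also under it. Of 11 collecting duct markers, 9 were at least 2-fold lower on day 3 than on day 0, against 21.4% of all genes. Their part in the Wnt7b values was not tested. All 11 were well above background on each array. Their summed level was 53.0, 12.6 and 8.13 times the 75th percentile on days 0, 1 and 3. Of the 11, 7 were at least 4-fold lower on day 3 than on day 0, against 7.8% of all genes.

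Wnt4, the ligand of the mesenchyme-to-epithelium change in nephron formation, was low on days 0 and 1. Its level was 4.13 ± 0.474% on day 0, 5.37 ± 0.578% on day 1 and 16.8 ± 1.69% on day 3. Unlike the 3 ligands above it was close to its day 0 level on day 1, at 1.30-fold, and stood 3.13-fold above day 1 on day 3. On day 3 it was 4.07-fold that on day 0, just past the threshold. With normexp background correction the log2 ratio of day 3 against day 0 was 1.08, in place of 2.02. That alternative changes the background correction and adds an offset of 50 intensity units. The processed Wnt4 signal was 48.9 intensity units on day 0 and 254 on day 3. Whether the offset or the correction moved Wnt4 was not tested.

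**Figure D1:**
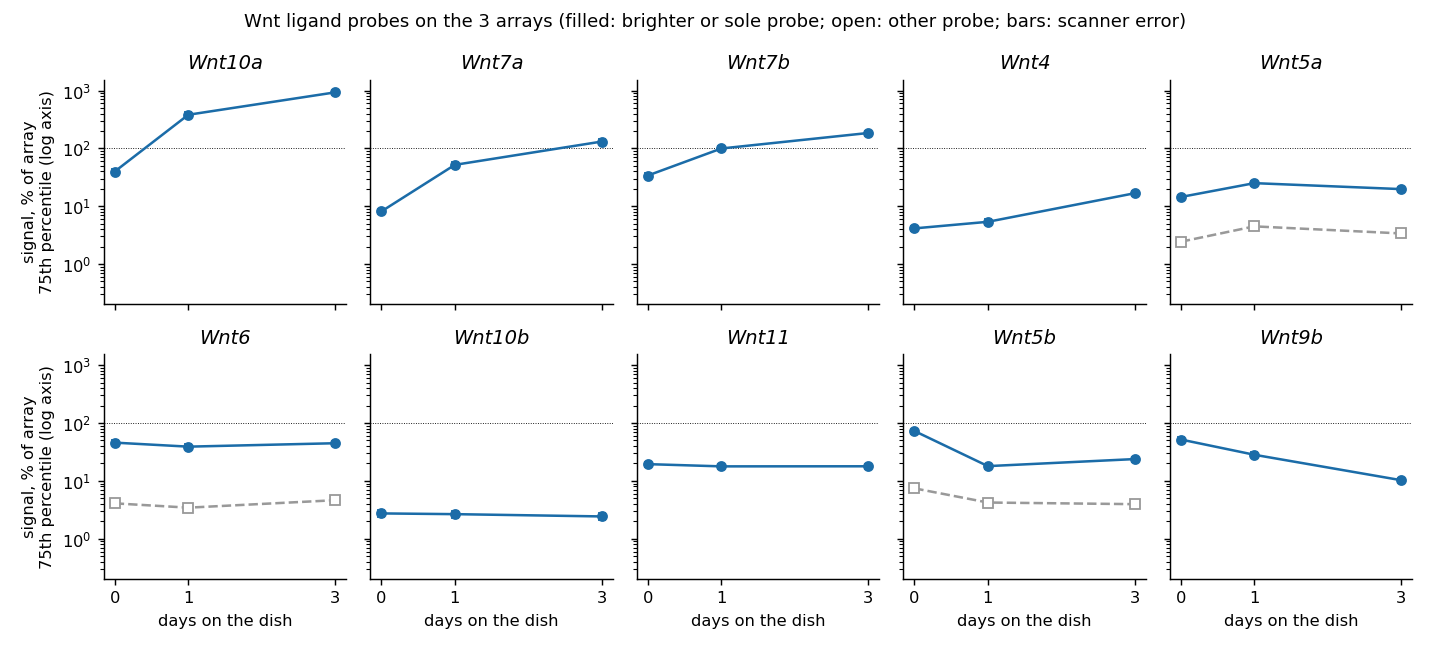
Level of each Wnt ligand by day in culture, as a percent of the array's 75th percentile on a log axis, with 1 array per day. Filled points are the brighter or sole probe, open squares the other probe, bars the scanner software's error and the dotted line the 75th percentile; Wnt10a goes up to 931% on day 3 while Wnt9b is at 10.3%.

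Wnt5a, Wnt6, Wnt10b and Wnt11 differed little between the days. Wnt5a, the best known ligand of the planar polarity and calcium branch, was 14.4 ± 1.46% on day 0, 25.0 ± 2.51% on day 1 and 19.7 ± 1.98% on day 3 by its brighter probe. Its ratios were 1.74-fold on day 1 and 1.37-fold on day 3 against day 0, and the other probe gave 1.84-fold and 1.39-fold, close to them although it reads another stretch of the transcript. Wnt6, known from the ureteric bud and from other epithelia, was 45.8 ± 4.59%, 39.1 ± 3.91% and 44.8 ± 4.48% on days 0, 1 and 3. Its other probe was at 4.09%, 3.44% and 4.63% on days 0, 1 and 3, and differed most between day 3 and day 1, by 1.35-fold against 1.15-fold for the brighter probe.

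Wnt10b, a beta-catenin ligand that holds back fat cell formation, was near the dim end of the array on all days, at 2.74%, 2.66% and 2.43%. The lowest signals well above background were 1.14%, 1.06% and 0.936% on days 0, 1 and 3. Wnt11, the bud-tip ligand, was 19.5%, 17.8% and 17.9% on days 0, 1 and 3. The signs of these small log2 ratios carry no direction, since the sign of Wnt6, Wnt10b and Wnt11 on day 3 against day 0 turned under other scalings. Wnt5a on day 3 and Wnt4 on day 1 against day 0, with log2 ratios of 0.45 and 0.38, are smaller than the shift of 0.57 and 0.45 that scaling to reference genes gives every gene, so their sign depends on the scaling.

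Wnt5b, a ligand near to Wnt5a in sequence, was lower in culture by both of its probes, with unequal size. The brighter probe was at 73.0 ± 7.30% on day 0, 18.0 ± 1.82% on day 1 and 23.8 ± 2.39% on day 3, which is 4.06-fold lower on day 1 than on day 0 and 3.06-fold lower on day 3 than on day 0. The dimmer probe was at 7.43%, 4.22% and 3.96%, which is 1.76-fold and 1.88-fold lower on days 1 and 3 than on day 0. The direction is shared and the size is not, and the mean over both probes put Wnt5b at a log2 ratio of -1.42 on day 1 against day 0, under the 4-fold threshold.

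Wnt9b, the inducer of nephron progenitors, was lower on each later array. Its level was 51.9 ± 5.20% on day 0, 28.3 ± 2.84% on day 1 and 10.3 ± 1.04% on day 3. It was 1.84-fold lower on day 1 than on day 0, 5.06-fold lower on day 3 than on day 0 and 2.76-fold lower on day 3 than on day 1. Among all genes, 5.56% had a lower ratio than Wnt9b on day 3 against day 0. Proximal tubule and collecting duct markers were lower in culture as well, as given below, and their part in the Wnt9b values was not tested.

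Over the 10 ligands, 2 (Wnt7a and Wnt10a) were at least 4-fold higher on day 1 than on day 0, against 3.37% of the 18910 genes compared, and 1 (Wnt5b) was at least 4-fold lower, against 5.15%. At 2-fold the counts were 3 higher (13.5% of all genes) and 1 lower (15.3%). On day 3 against day 0, 4 ligands were at least 4-fold higher (5.32% of all 19105 genes) and 1 was lower (7.8%), and at 2-fold 4 were higher (16.5%) and 2 lower (21.4%). No ligand reached 4-fold between day 3 and day 1 in either direction, where 1.62% of all genes were higher and 1.27% lower. At 2-fold 3 were higher on day 3 than on day 1 (Wnt4, Wnt7a and Wnt10a, against 6.96% of all genes) and 1 was lower (Wnt9b, against 8.06%). Since the ligands were chosen with earlier results of these data known, these counts are no test against the shares of all genes.

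The median log2 ratio of the 10 was 0.17 on day 1 against day 0, where the median of all genes was -0.11. It was 0.21 on day 3 against day 0 (all genes -0.11) and 0.30 on day 3 against day 1 (all genes -0.04). The ligands do not share 1 direction. At 2-fold on day 3 against day 0, 4 were higher and 2 were lower, on either side of 4 that differed by less.

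**Figure D2:**
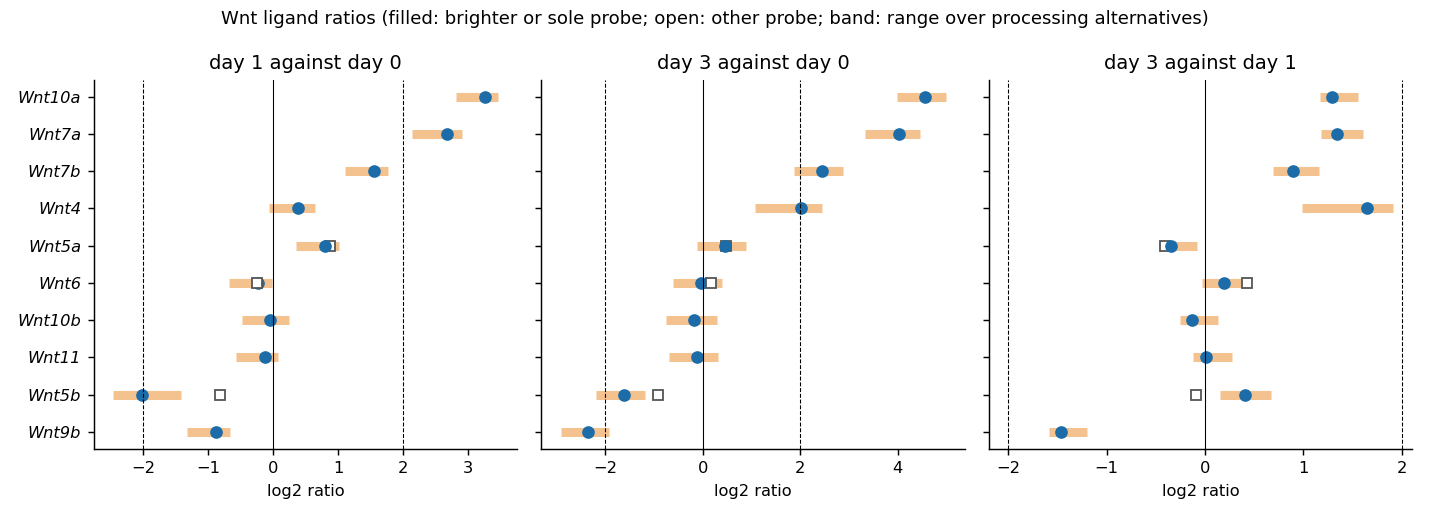
Log2 ratio of each Wnt ligand in the 3 comparisons, later day over earlier day. Filled points are the brighter or sole probe, open squares the other probe, bands the range over the processing alternatives and dashed lines the 4-fold threshold; Wnt10a and Wnt7a stay past it on day 3 against day 0 across the band, at 3.98 to 4.98 and 3.32 to 4.45.

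Wnt6 and Wnt10a are neighbours on chromosome 1 with 0 protein-coding genes between them in the RefSeq table, and Wnt10a was 23.4-fold higher on day 3 than on day 0 whereas Wnt6 had a log2 ratio of -0.03. Wnt9b has Wnt3 as its neighbour on chromosome 11, and Wnt3 was well above background on the day 3 array only, at 2.02%, which is at least 1.77-fold higher than on day 0. Wnt10b has Wnt1 as its neighbour on chromosome 15.

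Of the other 9 Wnt genes, the 4-fold threshold was passed by 1 upward and 1 downward on day 3 against day 0. With 5.32% of all genes higher and 7.8% lower, 1 of 9 each way is near the background. The median of the 9 was 0.12 on the log2 scale. Wnt9a, a beta-catenin ligand of joints, was 16.9%, 41.7% and 85.4% on days 0, 1 and 3 by its brighter probe, 5.04-fold higher on day 3 than on day 0, but the dimmer probe had 0.06 as its log2 ratio. Wnt2b was 21.0%, 10.4% and 5.20% on days 0, 1 and 3, 4.03-fold lower on day 3 than on day 0.

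Wnt1, with 10 spots of 1 probe, shows how far spots can differ for a Wnt gene. Its spots lay between 17.0% and 45.5% on day 0, 10.2% and 35.7% on day 1, and 9.84% and 37.1% on day 3, with SDs of 0.49, 0.62 and 0.82 on the log2 scale. On day 3 against day 0 the log2 ratio of the same spot ranged from -2.12 to 0.71, and 2 of the 10 spots were higher on day 3. Few probes with at least 5 spots varied as much, 13 of 235 on day 0, 7 of 230 on day 1 and 4 of 234 on day 3 having a larger SD. The median SD between spots of a probe was 0.14, or 1.15-fold for a ratio of 2 arrays. Each probe of the 10 ligands had 1 spot, so their own spot spread was not measured, and the scanner's error for them was 10% to 17.0% of the signal. The Wnt1 log2 ratios of day 3 against day 0 differed by place on the array. They were -0.40 to -0.13 in array rows 70 to 225, 0.71 and 0.01 in rows 350 and 351, and -2.12 to -1.17 in rows 359 to 428. The day 3 array had no trend correction, and the part of place in the ligands' values was not tested.

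**Figure D3:**
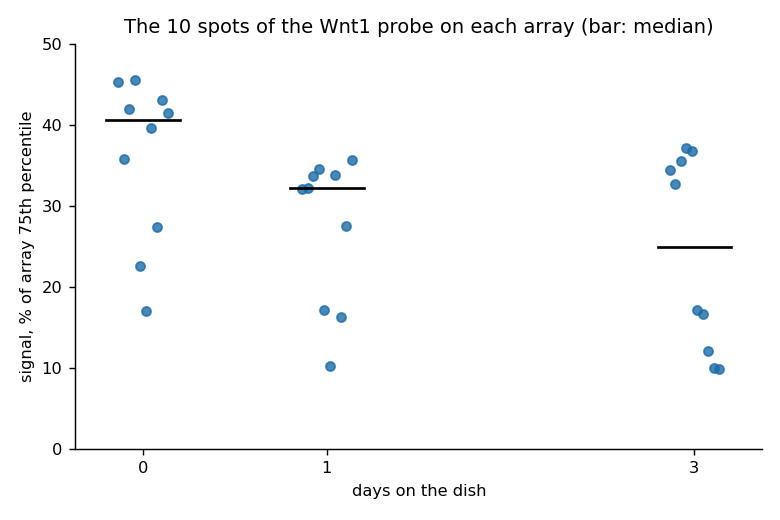
Signal of each of the 10 spots of the Wnt1 probe by day in culture, as a percent of the array's 75th percentile, with a bar at the median. The spots split into brighter and dimmer ones on each array and overlap between days, with the medians at 40.6%, 32.2% and 24.9%.

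The genes whose pattern was most like that of Wnt10a, by distance of both log2 ratios against day 0 over the 3 arrays and among 18329 genes, were Slc16a3, a lactate transporter (distance 0.12), Ddias, a survival factor in DNA damage (0.12), and Csf1, a growth factor of macrophages (0.15).

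The machinery that makes a Wnt ligand ready for secretion was measured by Porcn and Wls. Porcn, the acyltransferase, was at 42.2%, 16.3% and 16.1% on days 0, 1 and 3, 2.59-fold lower on day 1 than on day 0 and 2.63-fold lower on day 3 than on day 0. Wls, the carrier, had log2 ratios of -0.41 and -0.20 on days 1 and 3 against day 0 by the brighter of 2 probes, and the dimmer one gave -1.17 and -2.23. Neither gene reached 4-fold by the probe that stands for it.

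Of 16 receptors and coreceptors, 0 were at least 4-fold higher on either later day than on day 0. Of all genes, 3.37% were so higher on day 1 and 5.32% on day 3, and 0 of 16 is near these shares. With 7.8% of all genes at least 4-fold lower on day 3 than on day 0, 1 of the 16 is near the background. It was Lrp6, the beta-catenin coreceptor, at 84.6%, 25.6% and 16.5% on days 0, 1 and 3, 5.14-fold lower on day 3 than on day 0. Ryk, a receptor of the other branch, was at 345%, 702% and 869% on days 0, 1 and 3, which is 2.04-fold higher on day 1 and 2.52-fold higher on day 3 than on day 0. The median of the list was -0.42 on day 1 and -0.10 on day 3 against day 0.

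Of 9 R-spondins, their receptors and ligases, 1 was at least 4-fold lower on both later days than on day 0 and 0 were higher. Of all genes, 3.37% were so higher on day 1 and 5.32% on day 3, and 0 of 9 is near these shares. So lower were 5.15% of all genes on day 1 and 7.8% on day 3. Beside these shares, 1 of the 9 is near the background. It was Lgr4, an R-spondin receptor, at 1067%, 114% and 87.4% on days 0, 1 and 3 by the brightest of 4 probes, and its other probes gave log2 ratios as high as 0.81 on day 1 and -1.58 on day 3 against day 0.

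Secreted inhibitors, which bind Wnt ligands or their coreceptors, were listed together with Kremen1 and Kremen2. Of the Wnt pathway lists, this one had the most members past 4-fold downward on day 1 and on day 3 against day 0. Of 14 compared, 6 were at least 4-fold lower on day 1 than on day 0 (5.15% of all genes) and 4 on day 3 than on day 0 (7.8%), with medians of -1.0 and -1.53. Sfrp2 was at 244%, 25.3% and 13.1% on days 0, 1 and 3, 18.7-fold lower on day 3 than on day 0. Sostdc1, an antagonist of both Wnt and BMP, was 16.5-fold lower on day 3 than on day 0, Sfrp1 14.0-fold and Dkk2 4.37-fold. Notum, which takes the lipid off Wnt proteins, was 4.35-fold lower on day 1 than on day 0. Dkk3 ran the other way after day 1, 4.34-fold higher on day 3 than on day 1, and was chosen after its values were seen. Dkk4 was not well above background on any array.

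**Figure D4:**
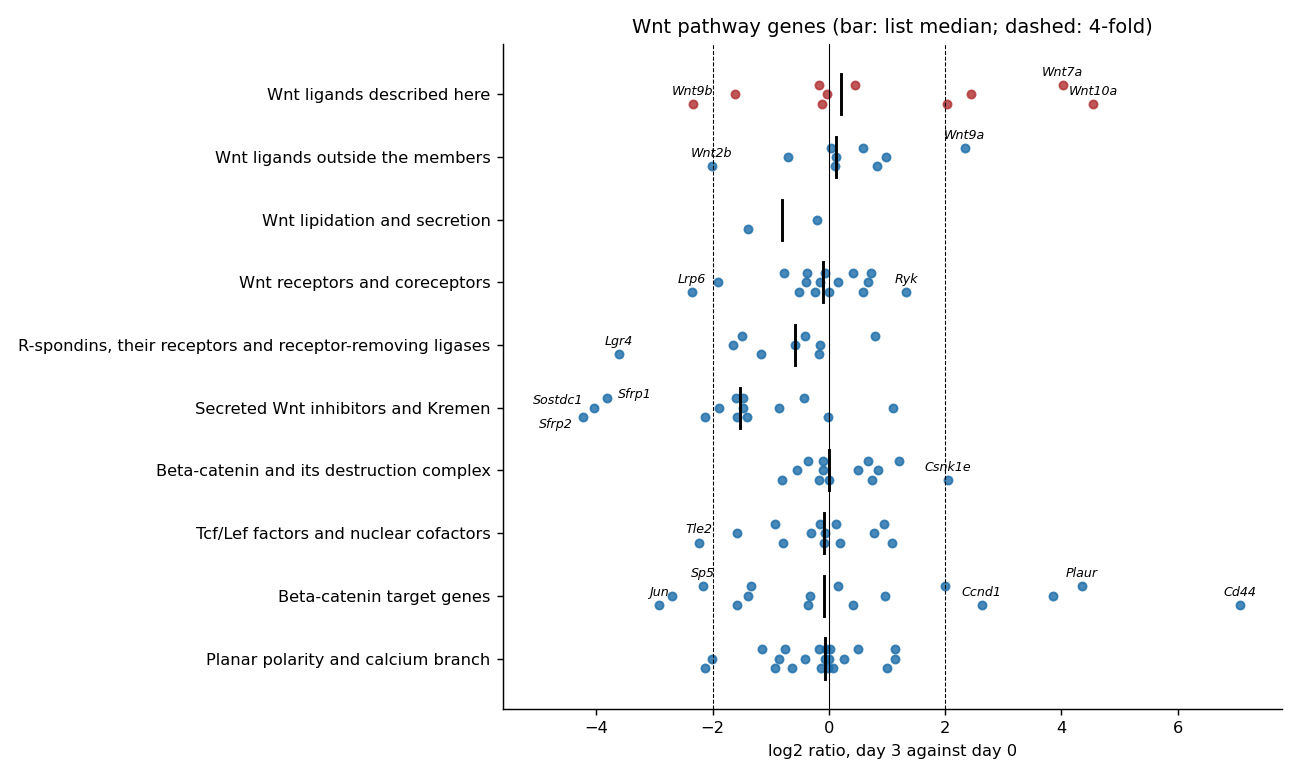
Log2 ratio of day 3 over day 0 for the Wnt ligands described here (red) and the other Wnt pathway genes (blue), 1 row per list, with a bar at each median and dashed lines at 4-fold. The ligands spread to both sides, while the list of secreted inhibitors and Kremen genes lies mostly to the left, with a median of -1.53.

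The next 3 lists had 1 or 2 members each past 4-fold on day 3 against day 0. Of all genes, 5.32% were at least 4-fold higher and 7.8% lower, so these counts are near the background. Of 13 genes of beta-catenin and its destruction complex 1 was at least 4-fold higher on day 3 than on day 0, Csnk1e, a casein kinase, at 4.12-fold, with 1.34 as the log2 ratio of its other probe. Of 13 Tcf/Lef factors and cofactors 1 was lower, the corepressor Tle2, 4.68-fold on day 3 against day 0. Of 21 genes of the planar polarity and calcium branch 2 were lower on day 3 than on day 0, the polarity genes Prickle1 (4.01-fold) and Prickle2 (4.40-fold). The probes of Prickle2 disagreed, with log2 ratios of -2.14 to -0.24. Csnk1e and Prickle1 lay just past 4-fold, within the shifts that other scalings give every gene.

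Genes that beta-catenin is known to induce went both ways. Of 16, 3 were at least 4-fold higher (3.37% of all genes) and 4 lower (5.15%) on day 1 than on day 0, and 4 were higher (5.32%) and 3 lower (7.8%) on day 3 than on day 0, with a median of -0.09. Cd44, an adhesion receptor, was 134-fold higher on day 3 than on day 0 by its brightest probe, at 2701% on day 3 and 20.2% on day 0, while another of its probes gave a log2 ratio of 0.81. Plaur, the urokinase receptor, was 20.4-fold and Fosl1, an AP-1 subunit, 14.5-fold higher on day 3 than on day 0. Jun, another AP-1 subunit, was 7.57-fold lower and Tnfrsf19, a member of the TNF receptor family, 6.47-fold lower, with -1.53 as the log2 ratio of the other Tnfrsf19 probe. Chosen after their values were seen, Axin2 and Sp5, targets that many tissues share, were both lower in culture. Sp5 was 6.95-fold lower on day 1 and 4.49-fold lower on day 3 than on day 0, and Axin2 was not well above background on day 1, at least 4.33-fold lower than on day 0, and 2.63-fold lower on day 3. Ccnd1, the G1 cyclin, also chosen after its values were seen, was 6.18-fold higher on day 3 than on day 0.

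The tubule label was set against markers. All 12 proximal tubule markers were well above background on each array. Their summed level was 966, 157 and 19.9 times the 75th percentile on days 0, 1 and 3. All 12 were at least 4-fold lower on day 3 than on day 0, against 7.8% of all genes. Markers of other segments were present on day 0 too, among them Umod of the thick ascending limb at 25230% and Aqp2 of the collecting duct at 1100%. The 7 markers of loop and distal tubule summed to 383, 90.5 and 18.1 times the 75th percentile on days 0, 1 and 3. Umod gave most of each sum, and Pvalb was not well above background on day 3. Of the 7, 5 were at least 4-fold lower on day 3 than on day 0, while Cldn16 was 1.84-fold higher. Mesothelial markers, all 5 well above background on each array, summed to 25.1, 79.8 and 187 times the 75th percentile, in the same order of days as Wnt10a and Wnt7a. Krt7, which tubule and duct epithelia also express, gave most of that sum, and Msln was at 4.70%, 43.1% and 1735% on days 0, 1 and 3. Of the 5, 3 (Msln, Upk3b and Krt7) were at least 4-fold higher on day 3 than on day 0, against 5.32% of all genes. Wt1 had a log2 ratio of -1.67. Fibroblast markers summed to 5.97, 4.64 and 11.1 times, with Col1a2 giving most of the sum on day 3 and the list's median log2 ratio at -0.80 on day 3 against day 0. Podocyte markers summed to 11.1, 2.06 and 3.32 times, endothelial markers to 23.7, 12.9 and 5.46 times and leukocyte markers to 1.97, 3.29 and 2.13 times. Cd68 gave most of the leukocyte sum on day 1, and that list's median log2 ratio on day 1 against day 0 was -0.02. The part of any of these in the Wnt values was not tested, and fewer cells of a type and less RNA per cell cannot be told apart in such bulk samples.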

How the data were processed

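Per the labels' protocols, total RNA was amplified, labelled with Cy3 and hybridised, 1 sample to each of 3 arrays. Per the file headers, Feature Extraction 10.5.1.1 measured the spots (the submitters' processing notes name 9.1) and gave an intensity per spot, background subtracted, with a multiplicative trend correction on the arrays of day 0 and day 1 and not on that of day 3. Flags of other kind (well above background, saturated, outlier), deposited beside it, are set to 0 or 1. The deposited value table holds a ratio, and its 43379 values per array match, within 0.001, the processed signal over the array's 75th percentile, on a linear scale.

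From these files the log2 processed signal minus the array's 75th percentile (1184, 1509 and 1515 intensity units on days 0, 1 and 3) was computed with Python 3.11.15 and pandas 2.3.3. Outlier spots (94, 102 and 85) were left out, no spot was saturated, and spots of a probe were averaged. Probes were named through the RefSeq table of GRCm38.p6 by accession (26888), symbol (5025) or synonym (832), and 8429 stayed unnamed. The probe with the highest mean stood for a gene. A comparison took the genes flagged well above background on either of its arrays, 18612 to 18870 genes being so on an array, and a side not above it gave a bound against the lowest signal well above background, written "at least". With 1 sample per day there was no test. The ratio calculation was run on simulated data with large changes put into brighter genes. The flag filter, the bounds, dim genes and ratios near 4-fold were not covered by it.

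The members and the lists were chosen with earlier results of these data known. Of the pathway lists, members past 4-fold on day 1 or day 3 against day 0 are named, at most 5 per list by the ratio of day 3, with the brightest of the receptors and both secretion genes; the exceptions are marked in the text. Alternatives were other scalings (median, quantile, 12 reference genes, spike-in controls), normexp in limma 3.58.1 (R 4.3.3, offset 50), the deposited table, the mean over probes, other filters on dim spots, outlier spots kept and a 2-fold threshold. The sequence of 1 probe is not reported here.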

Additional observations from a re-analysis of the deposited data

How the results depend on the processing

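Over 10 alternatives, 0 of 300 ratios of the 10 ligands went to the other sign from 2-fold or more, and 216 moved by less than the spread between spots. These counts say little about robustness. Other filters and kept outlier spots could not move the ligands, all well above background with no spot left out. The deposited table holds the same ratio within 0.001, and the mean over probes leaves ligands with 1 probe unchanged. Median, reference gene and spike-in scaling shift every gene alike. Scaling carried most of what moved. Against the 75th percentile, reference genes shifted the arrays of day 1 and day 3 by 0.45 and 0.57 (log2), spike-in controls by -0.17 and -0.43 and the median of all spots by -0.21 and -0.31. Of all genes past 4-fold on day 3 against day 0, 40.6% were higher, against 18.5% with reference genes, 56.3% with the median and 62.3% with spike-in controls. On day 3 against day 0 the count of ligands at least 4-fold higher was 4, 3 with normexp (without Wnt4) and 2 (Wnt7a and Wnt10a) when scaled to reference genes. The count at least 4-fold lower was 1 (Wnt9b), 2 with reference genes or at 2-fold (Wnt5b and Wnt9b), and 0 with spike-in controls, where Wnt9b had a log2 ratio of -1.91. On day 1 against day 0 the 1 lower ligand, Wnt5b, gave a count of 0 with median centring, quantile normalization, spike-in controls, normexp or the mean over probes. On day 3 against day 1 the counts of 0 became 3 higher and 1 lower at 2-fold. For Wnt4, the range on day 3 against day 0 was 1.08 to 2.45. No paired analysis was possible because each day had 1 array, all labelled replicate 1, and leaving out a replicate was not possible for the same reason. Signal over background limits the dim probes. The cause of the shifts between arrays was not tested.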
